A study of Homo sapiens with 4 samples.

Results

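The glutathione transferase (GST) and UDP-glucuronosyltransferase (UGT) genes are described here as they were measured in A549, a long-established line of human lung carcinoma cells. Members were the genes with an array row that carries exactly 1 gene symbol and whose symbol names a UGT, a GST of the alpha, kappa, mu, omega, pi, theta or zeta class, or a microsomal GST (MGST). For a gene with several such rows the row with the highest mean was used. This gave 33 members of 22465 named genes, with 22 in the GST families and 11 in the UGT families. A further 6 rows carried several symbols of which at least 1 belonged to these families, and they were not analysed here. They hold 14 family symbols that no single-symbol row carried, among them the UGT1A genes, so 0 members belong to UGT1A.

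The 2 groups of 2 arrays were A549 cells with a control lentivirus (shCtl) and A549 cells with a hairpin against INSL4 (shINSL4). Both groups were transduced with the vector pLKO.1 and came from separately set up cultures, and a single hairpin is named for shINSL4. The series design describes the control as a scrambled hairpin, whereas the sample labels describe a vector control. No source used here states if cultures within a group share a transduction, and the p-values then reflect only how far these cultures differ. No dose, drug or time point distinguishes the groups in the labels. INSL4 itself, the check of the knockdown, fell by 1.73 on the log2 scale (SE 0.0684, adjusted p = 0.000142 in limma), from 9.03 and 8.92 in shCtl to 7.26 and 7.22 in shINSL4.

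UGTs sit in the membrane of the endoplasmic reticulum and move glucuronic acid from UDP-glucuronic acid onto steroids, bile acids, fatty acids and drugs, which makes these compounds more soluble. GSTs join the tripeptide glutathione to reactive electrophiles, in the cytosol for most classes and in membranes for the MGST enzymes. A549 cells carry a mutated KEAP1, and the transcription factor NRF2, which KEAP1 normally restrains, is known to drive many conjugating enzymes in this line.

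The clearest difference lay in the UGT2B genes, whose enzymes conjugate steroid hormones, bile acids and fatty acids. The threshold in limma was a Benjamini-Hochberg adjusted p (over all 22465 genes) under 0.05. Of the 33 members, 1 (3%) was higher and 7 (21.2%) lower in shINSL4. Of the 11 UGT genes, 6 (54.5%) were lower and 0 higher. These 6 were among the 7 measured UGT2B genes, a subset chosen after its values were seen. Over all tested genes 9.42% were lower and 6.41% higher by the same rule. Several UGT2B genes are near-identical copies whose signals the array may not separate, so the UGT2B counts may hold fewer separate signals than genes. The UGT2B counts were also 6 lower and 0 higher at an unadjusted p under 0.05, where 13.6% of all tested genes were lower and 20.8% higher. Over all genes the 2117 lower and 1440 higher at the adjusted threshold became 2347 and 808 after centring and 2381 and 904 after cyclic loess, while the UGT2B counts stayed at 6 and 0. The UGT2B genes had low signals, and among genes below the median level of 6.95 (log2) 3.01% were lower and 4.69% higher at the adjusted threshold. The share of such genes at the unadjusted p was not computed. The median log2 fold change of the 7 genes was -0.59, against 0.085 for all tested genes. In RNA from whole cultures, fewer cells with a transcript and less transcript per cell cannot be told apart.

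The bases just before the start of 4 UGT2B genes and of GSTP1 are shown because these genes carry the differences reported here, with UGT2B7 as the UGT2B gene that did not pass. Each run is the 100 bases before the annotated start in RefSeq (GRCh38.p14), 5′ to 3′ on the gene's strand. Capitals mark the 18-base run TTTTAACTTGATTGATTT in the UGT2B genes, the longest run that UGT2B10, UGT2B11 and UGT2B15 share within 250 bases before the start. In GSTP1 they mark the core of an antioxidant response element, TGACNNNGC, the kind of site that NRF2 is known to bind.
UGT2B10, chr4:68815894-68815993, plus strand: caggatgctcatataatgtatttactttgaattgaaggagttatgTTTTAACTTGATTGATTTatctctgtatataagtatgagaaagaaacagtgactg
UGT2B11, chr4:69214749-69214848, minus strand: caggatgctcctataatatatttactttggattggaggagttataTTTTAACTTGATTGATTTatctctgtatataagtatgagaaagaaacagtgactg
UGT2B15, chr4:68670653-68670752, minus strand: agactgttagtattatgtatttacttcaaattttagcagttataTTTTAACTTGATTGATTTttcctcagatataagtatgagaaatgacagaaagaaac
UGT2B7, chr4:69096374-69096473, plus strand: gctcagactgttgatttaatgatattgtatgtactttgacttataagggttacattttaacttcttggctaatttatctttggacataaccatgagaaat
GSTP1, chr11:67583712-67583811, plus strand: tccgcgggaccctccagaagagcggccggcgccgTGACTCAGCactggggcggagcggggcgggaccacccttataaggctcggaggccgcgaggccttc

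The shared run begins 55 bases before the start in UGT2B10 and UGT2B11 and 56 bases before it in UGT2B15. The window of UGT2B7 holds no exact copy. UGT2B4, UGT2B17 and UGT2B28, which were also lower, had no matched RefSeq window and were not searched, so the run is not shown to set the lower genes apart from UGT2B7. Searched on both strands, the run was found in 3 of 35116 RefSeq promoter windows of 300 bases, or 0.00854%, and these were the 3 windows it was taken from. Over the 250 bases before the start, UGT2B10 and UGT2B11 were 90.2% identical in a global alignment, UGT2B10 and UGT2B15 70.6% and UGT2B11 and UGT2B15 71.4%. UGT2B7 was 61.3% to 65.1% identical to these 3 genes. The run was looked for after the values of the genes were known, and a match of letters is a description of the sequence.

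UGT2B11, whose enzyme is known to act on fatty acid derivatives, had log2 levels of 4.94 and 4.98 in shCtl and of 4.10 and 4.30 in shINSL4. The groups did not overlap, with shINSL4 low. The log2 level fell by 0.75 (SE 0.0817), which is 1.69-fold lower, at an adjusted p of 0.0019 in limma. UGT2B28, which is known to conjugate steroids, read 5.06 and 4.98 in shCtl and 4.17 and 4.46 in shINSL4. The groups did not overlap, and UGT2B28 fell by 0.70 (SE 0.101), with the wider spread in shINSL4.

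UGT2B15 and UGT2B17 encode the enzymes best known for removing the androgen dihydrotestosterone as its glucuronide. UGT2B15 stood at 6.27 and 6.22 in shCtl and at 5.53 and 5.67 in shINSL4, a fall of 0.64 on the log2 scale (SE 0.0725) at an adjusted p of 0.00222 in limma. UGT2B17 stood at 5.71 and 5.73 in shCtl and at 5.30 and 5.22 in shINSL4, a fall of 0.46 (SE 0.0636). For each gene the groups were separated by more than the spread within a group. These 2 genes are near-identical copies, so the array may not separate their signals. The same holds for UGT2B10, UGT2B11 and UGT2B28.

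UGT2B10 encodes the enzyme known for adding glucuronic acid to nicotine and its metabolite cotinine. Its log2 levels were 5.47 and 5.51 in shCtl and 4.94 and 4.87 in shINSL4, and it fell by 0.59 (SE 0.0633) at an adjusted p of 0.00188 in limma. It was the UGT2B gene with more than 1 single-symbol row. Each of its 4 rows was lower in shINSL4, by log2 fold changes from -0.70 to -0.53 that each passed the threshold in limma when all rows were tested. The identifier of the row used names a haplotype contig of chromosome 4, so the rows may stand for copies of the same gene. Whether these rows share probes was not checked, so they are not independent results.

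UGT2B4, a bile acid enzyme best known from liver, was measured at 3.81 and 3.95 in shCtl and 3.56 and 3.58 in shINSL4. The groups did not overlap, and UGT2B4 fell by 0.30 (SE 0.0713) at an adjusted p of 0.0326 in limma. This call was lost with an intensity trend in the variance (adjusted p = 0.0646 in limma). Leaving out shCtl replicate 2 (0.0769), shINSL4 replicate 1 (0.152) or shINSL4 replicate 2 (0.114) also ended it. The adjusted p ran from 0.0165 to 0.152 over 11 settings. The fall of UGT2B10, UGT2B11, UGT2B15, UGT2B17 and UGT2B28 passed in limma in each of the 11 settings in which they could be tested.

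UGT2B7, a broad enzyme for morphine, estrogens and fatty acids, was measured at 5.32 and 5.25 in shCtl and at 5.05 and 5.21 in shINSL4. The shINSL4 arrays were the lower ones, by a margin smaller than for the other UGT2B genes. Its log2 fold change was -0.15, with a 95% interval from limma of -0.34 to 0.033, and it did not pass (adjusted p = 0.202). Whether UGT2B7 differed in its response from the other UGT2B genes was not tested. In all, 7 of 7 UGT2B genes had arrays separated by group with shINSL4 lower, where 20.8% of all tested genes did. As the array may not separate near-identical copies, these 7 genes are not independent observations.

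**Figure D1:**
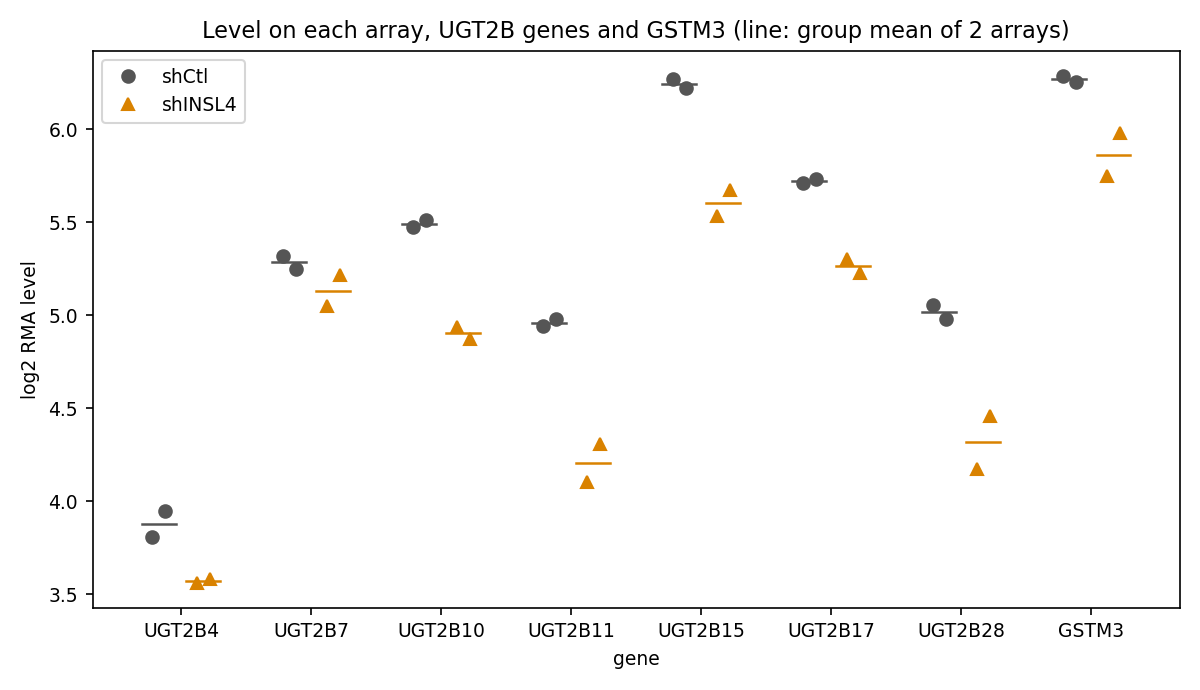
Log2 RMA level on each of the 4 arrays (vertical axis) for the 7 UGT2B genes and GSTM3 (horizontal axis). Circles are shCtl arrays, triangles are shINSL4 arrays and lines are group means of 2 arrays. For UGT2B11 the shCtl arrays sit at 4.94 and 4.98 and the shINSL4 arrays at 4.10 and 4.30, while the groups of UGT2B7 lie close together.

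In the RefSeq gene table for GRCh38.p14 the UGT2 genes form 1 cluster on chromosome 4, and 8 of them were measured, the 7 UGT2B genes and UGT2A3. UGT2A3, which also acts on bile acids, lies between UGT2B10 and UGT2B7 and had a log2 fold change of -0.14 (SE 0.0869, adjusted p = 0.272 in limma), with overlapping groups. The 8 UGT2 genes ranged from -0.75 to -0.14. The 5 nearest tested genes on each side of the cluster ranged from -0.016 to 0.17. Of these 10 genes 0 were higher and 0 lower in limma, with 0 at an unadjusted p under 0.05. At the adjusted threshold 4.69% of all genes below the median level were higher and 3.01% lower, so 0 calls among 10 genes says little. At the unadjusted p 20.8% of all tested genes were higher and 13.6% lower, but these shares include brighter genes. No such share was computed for genes below the median level. Of these 10 genes 9 were below the median level, with mean log2 levels from 2.73 to 4.53, and the exception was YTHDC1 at 8.75. The 8 UGT2 genes had mean levels from 3.72 to 5.92, so a fall in the dimmest neighbours may not have been detectable. The genes include TMPRSS11E, a serine protease gene, on one side and the sulfotransferase genes SULT1B1 and SULT1E1 on the other. The neighbours were looked up after the UGT2B values were known, and 5 a side is an arbitrary number.

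**Figure D2:**
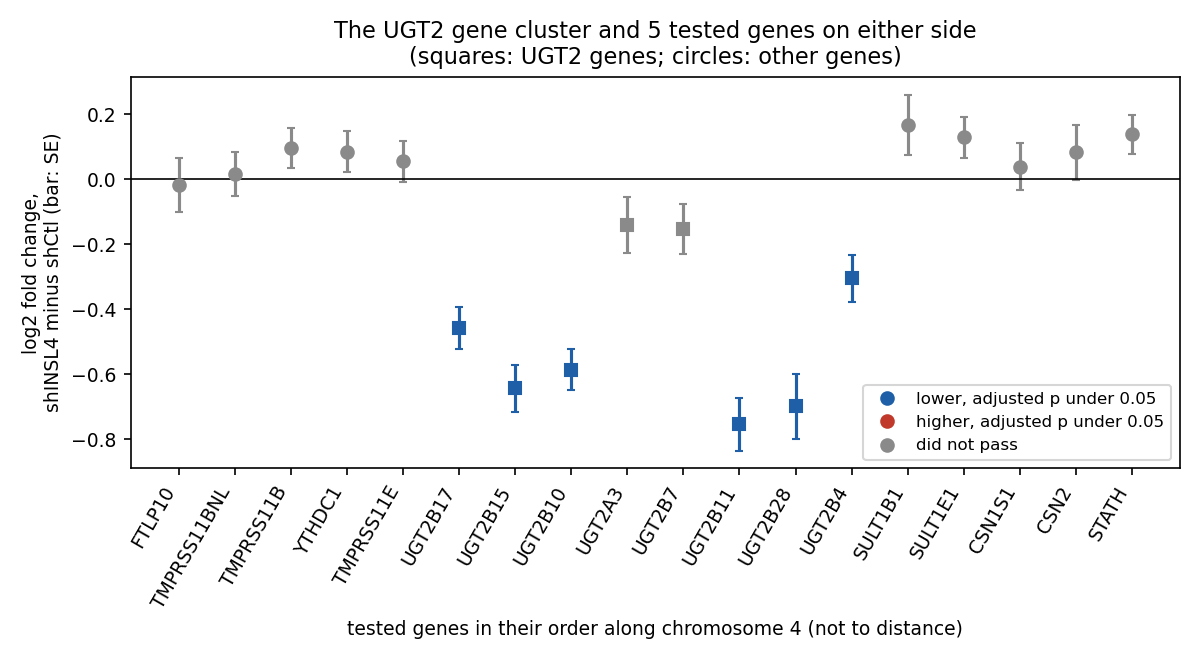
Log2 fold change of shINSL4 over shCtl (vertical axis, bars are limma's SE) for tested genes in their order along chromosome 4 (horizontal axis, order only and not distance). Squares are UGT2 genes and circles the 5 nearest tested genes on each side. The UGT2 genes lie between -0.75 and -0.14 and the other genes between -0.016 and 0.17.

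The other UGT genes did not pass. UGT8, which makes galactosylceramide and so acts with a galactose donor, had the largest positive log2 fold change of the UGT genes. It read 4.70 and 4.79 in shCtl and 4.92 and 5.03 in shINSL4, a log2 fold change of 0.23 (SE 0.0707, adjusted p = 0.0756 in limma). UGT3A1, which uses N-acetylglucosamine in place of glucuronic acid, had a log2 fold change of 0.19 (adjusted p = 0.0925), and its relative UGT3A2 one of 0.060 (adjusted p = 0.557). Of these 4 genes outside UGT2B, with UGT2A3, 0 were higher and 0 lower in limma, and 2 were higher and 0 lower at an unadjusted p under 0.05, a rule by which 20.8% of all tested genes were higher.

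Among the 22 GST genes limma called 1 higher and 1 lower in shINSL4, below the 6.41% and 9.42% of all tested genes. The median log2 fold change of the GST genes was 0.082, close to that of all tested genes. With no adjustment, 5 (22.7%) were higher and 4 (18.2%) lower at a p under 0.05 in limma, near the 20.8% and 13.6% of all tested genes. Groups did not overlap for 16 of the 22, with 10 higher and 6 lower, where 68.9% of all tested genes were separated and 48.0% of all were higher.

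GSTP1, the pi-class enzyme and a known NRF2 target, was the member that rose. Its log2 levels were 11.04 and 11.00 in shCtl and 11.28 and 11.28 in shINSL4. The shINSL4 arrays lay above the shCtl arrays, and GSTP1 rose by 0.26 on the log2 scale (SE 0.0608) at an adjusted p of 0.033 in limma. The call was lost after centring the arrays on their medians (adjusted p = 0.0596, a rise of 0.21). Leaving out shCtl replicate 2 (0.0725), shINSL4 replicate 1 (0.245) or shINSL4 replicate 2 (0.225) ended it too. Over 12 settings the adjusted p ran from 0.00697 to 0.245, while the log2 fold change stayed between 0.21 and 0.32. In the RefSeq window the antioxidant response element core begins 66 bases before the start of GSTP1, as TGACTCAGC. That core was found, on either strand, in 8 of the 31 windows of 25 members and in 13.3% of all 35116 windows. The 8 members with it were GSTA4, GSTM1, GSTM5, GSTO1, GSTP1, MGST1, UGT2B10 and UGT2B11, so it stands in genes that rose, fell and did not pass. RefSeq windows were not matched for GSTA7P, GSTM2P1, GSTT1, GSTTP2, MGST2, UGT2B4, UGT2B17 and UGT2B28.

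GSTM3 was the GST gene that fell. This mu-class enzyme read 6.28 and 6.25 in shCtl and 5.75 and 5.98 in shINSL4, with the shINSL4 arrays below the shCtl arrays and further apart from each other. It fell by 0.41 (SE 0.0877), or 1.32-fold, at an adjusted p of 0.0248 in limma. The call was lost without shCtl replicate 1 (0.0576), shCtl replicate 2 (0.0745) or shINSL4 replicate 1 (0.165), and over 11 settings the adjusted p ran from 0.00135 to 0.165.

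The other mu-class genes lie beside GSTM3 on chromosome 1, except the pseudogene GSTM2P1 on chromosome 6, and they did not pass. GSTM4 read 7.86 and 7.84 in shCtl and 7.69 and 7.70 in shINSL4, a log2 fold change of -0.15 (95% interval -0.30 to -0.0087, adjusted p = 0.13 in limma). GSTM1, GSTM2 and GSTM5 had log2 fold changes of -0.049, 0.029 and 0.0015. GSTM2P1 had one of 0.18 (adjusted p = 0.137). Mu-class genes are close copies of each other, so the array may not separate their signals.

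Of the 5 alpha-class genes, which encode enzymes for products of lipid peroxidation and for steroid precursors, 0 were higher and 0 lower in limma, and 3 were higher at an unadjusted p under 0.05, where 20.8% of all tested genes were. GSTA4, which clears the lipid aldehyde 4-hydroxynonenal, was measured at 7.67 and 7.80 in shCtl and at 7.70 and 7.72 in shINSL4, so the groups overlapped. Its log2 fold change was -0.025 (95% interval -0.19 to 0.14). GSTA1, GSTA3 and GSTA5 had log2 fold changes of 0.21, 0.22 and 0.20 with adjusted p-values of 0.0936, 0.106 and 0.0814, and the pseudogene GSTA7P one of 0.17 (0.258). Small positive values were common on these arrays, and 15466 of 22465 tested genes had a log2 fold change above 0.

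The 3 theta-class members GSTT1, GSTT4 and the pseudogene GSTTP2 had log2 fold changes of 0.15, 0.13 and 0.097, and none passed in limma at either the adjusted threshold or an unadjusted p under 0.05. GSTO1, which reduces dehydroascorbate, read 6.995 and 7.02 in shCtl and 6.98 and 7.10 in shINSL4. Its log2 fold change was 0.031 (95% interval -0.13 to 0.19), and the sign turned with quantile normalization, centring or cyclic loess. Its neighbour GSTO2 had a log2 fold change of 0.095 (adjusted p = 0.28). GSTZ1, the maleylacetoacetate isomerase of tyrosine breakdown, read 7.62 and 7.62 against 7.70 and 7.70, a log2 fold change of 0.084 (95% interval -0.059 to 0.23, adjusted p = 0.327). GSTK1, found in mitochondria and peroxisomes, read 8.25 and 8.24 against 8.06 and 8.14, a log2 fold change of -0.14 (95% interval -0.30 to 0.011, adjusted p = 0.166).

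The membrane-bound MGST genes did not pass in limma, with 0 higher and 0 lower, and 2 of the 3 were lower at an unadjusted p under 0.05, where 13.6% of all tested genes were. MGST2, which can make the inflammatory lipid leukotriene C4, read 7.23 and 7.31 in shCtl and 7.02 and 7.11 in shINSL4, a log2 fold change of -0.20 (SE 0.0685, adjusted p = 0.0972). It passed when the dimmest 40% of genes were left out (adjusted p = 0.0382 in limma). MGST1, an abundant detoxifying enzyme of the endoplasmic reticulum and mitochondria, read 8.39 and 8.50 against 8.26 and 8.28, a log2 fold change of -0.17 (SE 0.0674, adjusted p = 0.124). The rows of MGST1 disagreed: its other row, at 5.90 and 5.97 against 6.25 and 6.28, had a log2 fold change of 0.33 (SE 0.0639) and was higher at an adjusted p of 0.0181 when all rows were tested in limma. MGST3 had a log2 fold change of 0.080 (95% interval -0.12 to 0.28) with overlapping groups, and its other row one of -0.059.

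**Figure D3:**
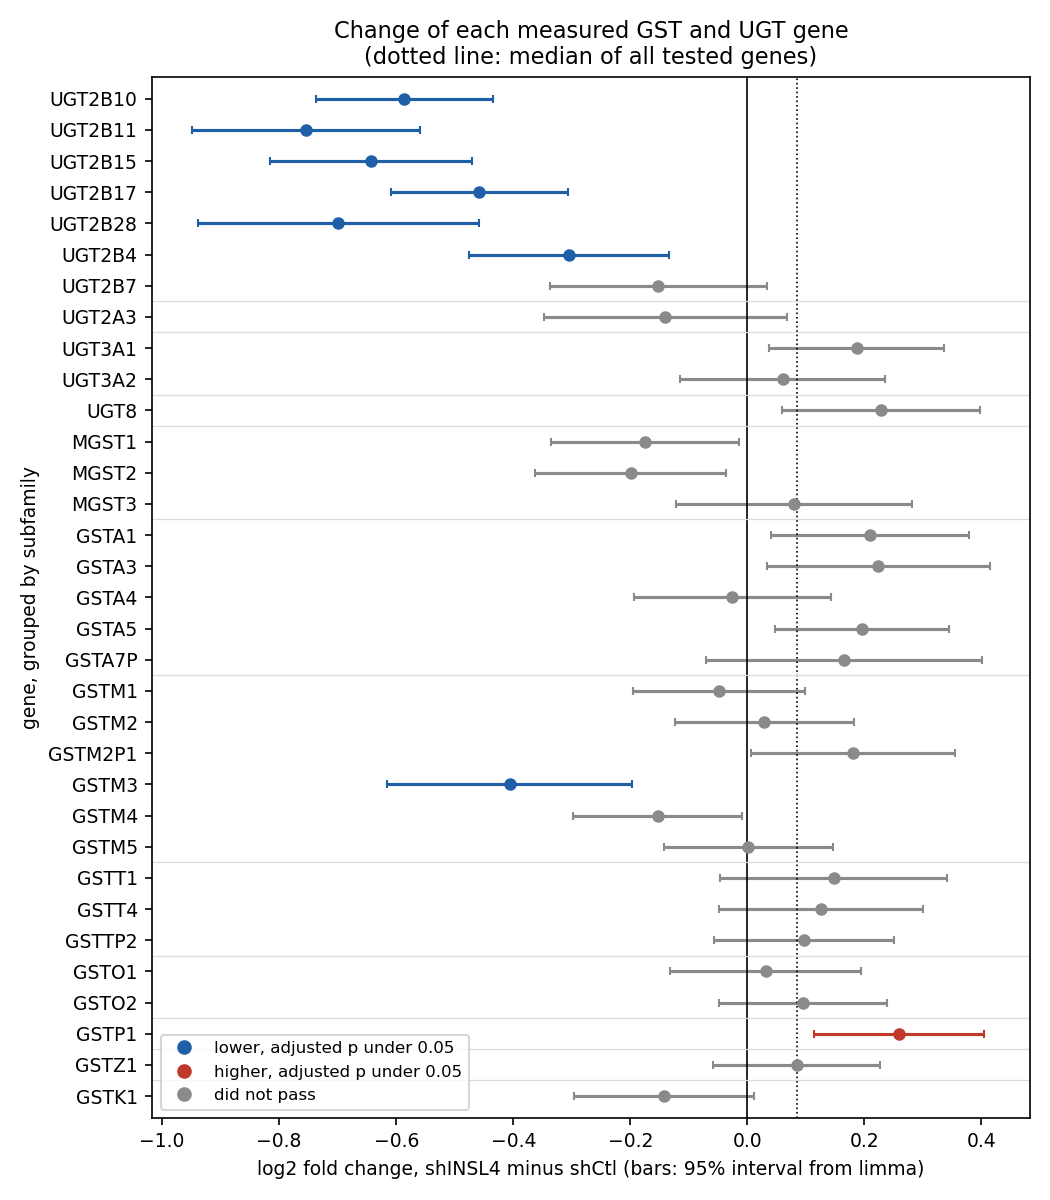
Log2 fold change of shINSL4 over shCtl (horizontal axis) with limma's 95% interval for the 33 members (vertical axis), grouped by subfamily. Blue marks genes that were lower and red genes that were higher at an adjusted p under 0.05. The dotted line is the median of all tested genes, 0.085. The 6 UGT2B genes that passed lie to the left of the other UGT genes, while UGT2B7 (-0.15) and UGT2A3 (-0.14) lie nearly level with overlapping intervals.

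Genes around the donors of the 2 reactions were looked at through a list of genes that make, use or carry glutathione and a list around glucuronic acid, which also holds carriers of other nucleotides and sugars. Of 25 measured genes of 28 that handle glutathione, 4 (16%) were higher and 5 (20%) lower in limma, against 6.41% and 9.42% of all tested genes, with a median log2 fold change of -0.044. GCLM, the modifier subunit of the enzyme that starts glutathione synthesis, read 9.41 and 9.56 in shCtl and 10.02 and 10.05 in shINSL4 and rose by 0.55 (SE 0.0719, adjusted p = 0.00392). The export pump genes ABCC2 and ABCC1, which carry glutathione and glucuronide conjugates out of cells, rose by 0.48 and 0.31. GCLC, the catalytic subunit, was the remaining gene that rose, by 0.24 (adjusted p = 0.0435), and was named after its values were seen.

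SLC7A11, the cystine importer that feeds glutathione synthesis, fell by 0.40 (adjusted p = 0.0114 in limma), so the importer and the synthesis enzyme moved in opposite directions. GGCT, which breaks down gamma-glutamyl peptides, fell by 0.60. The glutathione peroxidase genes GPX2, GPX3 and GPX4, which use glutathione to reduce peroxides, fell by 0.41, 0.50 and 0.40. The rows of GPX3 disagreed: its other row, at 5.87 and 5.76 in shCtl against 5.86 and 5.82 in shINSL4, had a log2 fold change of 0.026, and the mean over both rows was -0.24. Without shINSL4 replicate 1 or without shINSL4 replicate 2, 2 of the list were higher, with ABCC1 (0.0840 and 0.164) and GCLC (0.385 and 0.190) no longer passing. The ranges of their adjusted p over 12 settings were 0.00316 to 0.164 and 0.0112 to 0.385, and ABCC1 was also lost without shCtl replicate 2 (0.0513). GCLC was also lost after centring (0.0907) and without shCtl replicate 1 (0.0580) or 2 (0.0720). GPX4 was lost without shINSL4 replicate 1 (0.0878, range 0.00154 to 0.0878), and GPX3 with the mean over its rows (0.0660, range 0.000419 to 0.0660).

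Of 12 measured genes of 13 around glucuronic acid, 1 (8.3%) was higher and 3 (25%) lower in limma, against 6.41% and 9.42% of all tested genes, with a median log2 fold change of -0.20. Of the 12, 11 were at or above the median level, where genes passed more often than over all tested genes. At an unadjusted p under 0.05 in limma, 1 (8.3%) was higher and 7 (58.3%) lower, against 20.8% and 13.6% of all tested genes. Of the 3 genes lower at the adjusted threshold, SLC35B1 and SLC35B4 are best known as carriers of other nucleotides and sugars. UGDH, which makes UDP-glucuronic acid, had a log2 fold change of -0.12 (adjusted p = 0.215). SLC35D1, a carrier of UDP-glucuronic acid into the endoplasmic reticulum, rose by 0.34 (adjusted p = 0.0283). That call was lost after centring (0.0710) or cyclic loess (0.0569) and without shCtl replicate 1 (0.0563) or shINSL4 replicate 2 (0.174), and the adjusted p ran from 0.00496 to 0.174 over 12 settings. Among the genes that fell, GUSB, the lysosomal enzyme that removes glucuronic acid, fell by 0.26. Its call was lost after quantile normalization (0.0595) and on leaving out shCtl replicate 1 (0.0533) or either shINSL4 array (0.288 and 0.177), and its adjusted p ran from 0.00844 to 0.288 over 12 settings. SLC35B1, an ATP carrier of the endoplasmic reticulum, fell by 0.79, and SLC35B4, a carrier of UDP-xylose and UDP-N-acetylglucosamine, by 0.71.

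Of 17 measured transcription factors and partners of 24 that control conjugating enzymes, 0 were higher and 2 (11.8%) lower in limma, the latter near the 9.42% of all tested genes. The counts were the same at an unadjusted p under 0.05 in limma, where 20.8% of all tested genes were higher and 13.6% lower. The median log2 fold change was 0.063. The dioxin receptor gene AHR fell by 0.31 (adjusted p = 0.0292) and that of its partner ARNT by 0.44 (adjusted p = 0.00697). AHR no longer passed after quantile normalization (0.0998) or cyclic loess (0.0530). It also did not pass without shCtl replicate 1 (0.0528), shCtl replicate 2 (0.0645) or shINSL4 replicate 2 (0.262), and its adjusted p ran from 0.00570 to 0.262 over 12 settings. The NRF2 gene NFE2L2 had a log2 fold change of 0.063 (adjusted p = 0.465) and KEAP1 one of -0.061 (adjusted p = 0.537), both named after their values were seen.

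**Figure D4:**
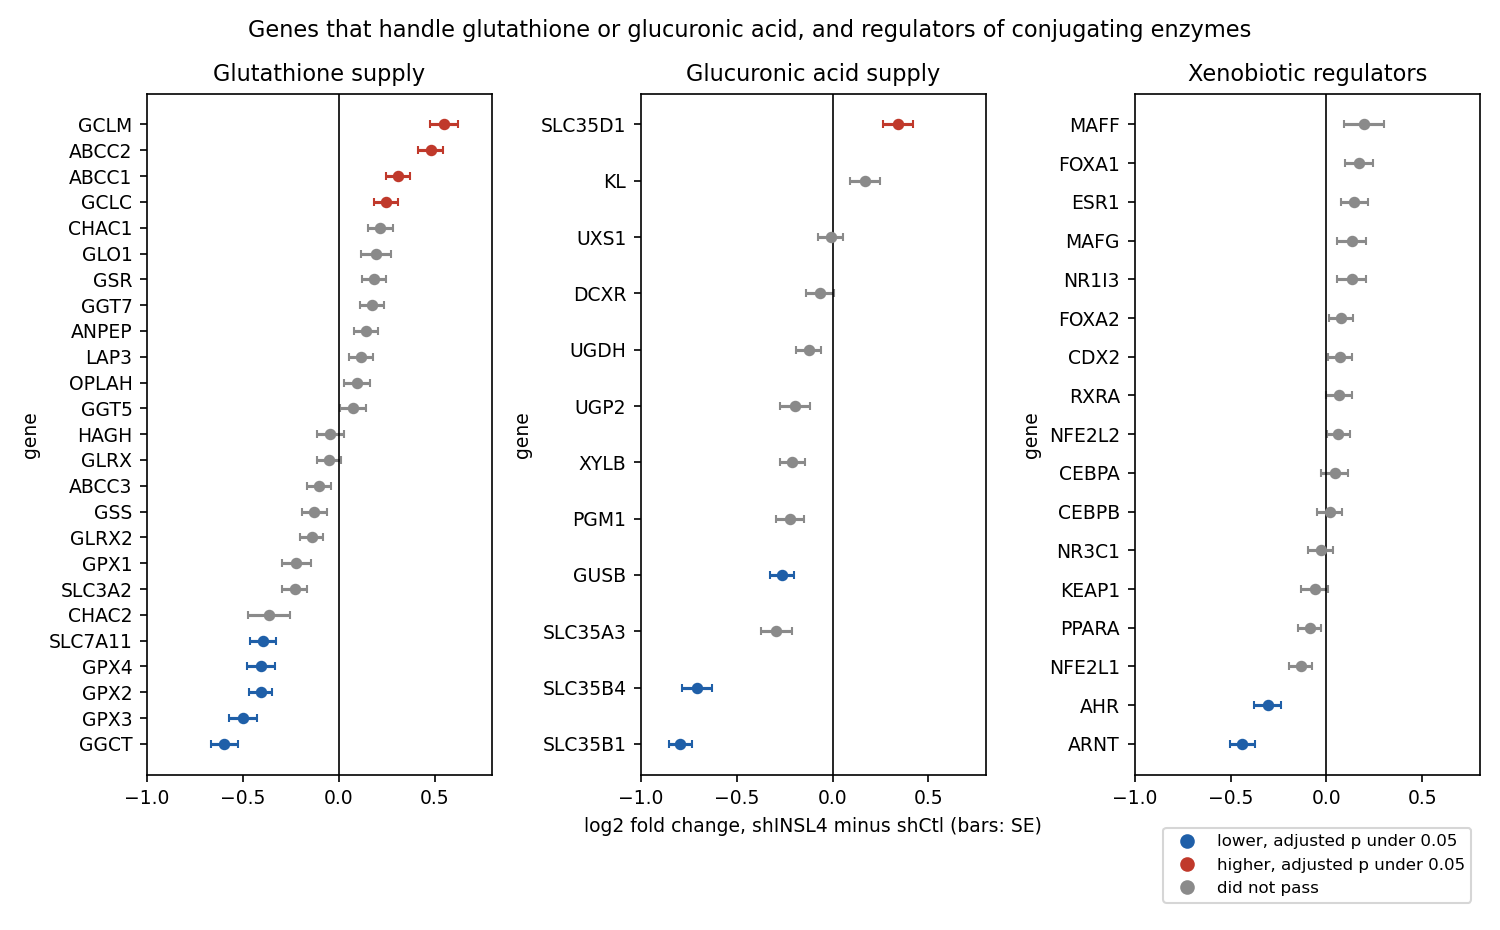
Log2 fold change of shINSL4 over shCtl (horizontal axis, bars are limma's SE) for measured genes that handle glutathione, that handle glucuronic acid, and that regulate conjugating enzymes (vertical axes, sorted by value). Blue marks lower and red higher genes at an adjusted p under 0.05, as for GCLM at 0.55 and ARNT at -0.44.

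The labelled cell type was checked on markers. By limma's adjusted p, 9.42% of all tested genes were lower and 6.41% higher. Of 7 markers of A549 cells or airway epithelium, 4 (57.1%) were lower and 0 higher. The 4 were KRT8, KRT18, EPCAM and CDH1, with log2 fold changes from -0.54 to -0.28. KRT19 (0.12), ALDH1A1 (-0.061) and AKR1B10 (-0.14) did not pass. Levels of the 7 markers ran from 6.56 to 13.2 (log2). Of the 7, 5 were at or above the median level, where genes passed more often than over all tested genes. Of 13 measured markers of 15 for fibroblasts, leukocytes, endothelium and hepatocytes, 1 (7.7%) was higher and 1 (7.7%) lower. Their levels ran from 3.72 to 7.61. Both called genes were fibroblast markers, with DCN higher by 0.30 and LUM lower. LUM had a log2 fold change of -0.78 (adjusted p = 0.00377 in limma) at a mean level of 4.56. UGT2B11 had -0.75 at a mean level of 4.58, so a call of this size at this signal was not confined to the UGT2B genes. The deposited values hold no detection calls, so no marker can be called absent. For the same reason the dim UGT2B genes, whose levels overlap those of markers of other cell types, cannot be called present. The part of these marker differences in the UGT2B result was not tested.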

How the data were processed

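The authors deposited log2 levels. Per the submitters' processing notes, Affymetrix Expression Console and RMA were used, a method that removes background, equalises the arrays' distributions and gives 1 value per transcript cluster; small changes of dim genes can be understated by it. Tool versions, annotation and build: not given in the sources used here. The platform annotation pairs 23781 of 67528 rows with exactly 1 symbol and 1543 with more, and 42204 rows stay unnamed. The 22465 genes, 479 of them with several rows, were tested without a filter in R 4.3.3 with limma 3.58.1 (group term, eBayes, two-sided), with Benjamini-Hochberg adjustment over all genes at 0.05. Intervals are 95% intervals from limma. Precision is limited by having 4 arrays, and the median SE was 0.0693. The pipeline was also run on simulated arrays with independent noise drawn from limma's own fit and known shifts. These held no array-wide shifts and no shared signals of near-identical genes. The run checks the code and not the calls made here.

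The members and lists were chosen with earlier results of these data known. The text gives full values for members past the threshold, for those at or above the median level of 6.95 (log2), for the extremes of each family, and for at most 8 called genes per list by smallest p; other members are given so that each is accounted for. Other settings tried were a block for replicate number, centring, quantile and cyclic loess normalization, leaving out the dimmest 40% of genes, the mean over rows, an intensity trend, and leaving out each array.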

Additional observations from a re-analysis of the deposited data

How the results depend on the processing

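The fall of UGT2B genes, a subset chosen after its values were seen, held in each setting that tested them: 5 of 7 with an intensity trend, 5 to 6 with single arrays left out and 6 in the others. Leaving out the dimmest 40% of genes removed all UGT2B genes and left 11 members, of which MGST2 was the 1 lower gene; the other settings gave 5 to 8 lower members. Higher members numbered 4 with the replicate number as a block, which added UGT8 (adjusted p = 0.0322), GSTA1 (0.0428) and GSTA5 (0.0499) to GSTP1 and MGST2 (0.0473) to the lower ones; they numbered 0 after centring and 0 to 1 with single arrays left out. The labels do not say that the numbers mark a shared day or batch. In both groups the sample titles also carry the letters WA for replicate 1 and WB for replicate 2, which the labels do not explain. Over all genes the deviations of same-numbered arrays correlated at 0.232. Whether the arrays were paired by replicate is not stated, and the main fit did not pair them. With that block 8 glutathione genes were lower and 5 glucuronic acid genes, and 2996 genes were higher and 2605 lower against 1440 and 2117 without it. An intensity trend gave 8 and 6, and the filter on dim genes 6 lower glucuronic acid genes. The count of higher glucuronic acid genes was 0 after centring or cyclic loess, and that of lower regulators 1 after quantile normalization or cyclic loess. With single arrays left out, where the lone array of a group is assumed to vary like the other group, the glutathione genes had 2 to 3 higher, the glucuronic acid genes 0 to 1 higher, and the regulators 0 to 1 higher and 1 to 2 lower. The sign of GSTO1, which did not pass, turned after centring (-0.017), quantile normalization (-0.015) and cyclic loess (-0.046), and with single arrays left out it ran from -0.027 to 0.090. MGST1 turned to 0.078 with the mean over rows. With single arrays left out, GSTA4 ran from -0.094 to 0.043 and MGST3 from -0.026 to 0.19. The cause was not tested, except that the filter on dim genes tests fewer genes. Among all genes, the count of higher genes moved by more than 1.5-fold with the block, with the filter on dim genes (2223), after centring (808) and cyclic loess (904), and with single arrays left out (808 to 2999, with 1403 to 2430 lower).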
